A study of Mus musculus with 4 samples.

Results

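The TNF superfamily ligands are cytokines, most of them anchored in the cell membrane as trimers, through which T cells signal to the cells they touch. Each binds a receptor of the TNF receptor superfamily, and the receptor passes the signal on through TRAF adaptors or death domains to NF-kB, kinase cascades or cell death. In CD4 T cells the ligands are induced by activation and serve to help B cells and dendritic cells, to prolong T cell survival, to build lymphoid tissue and to drive inflammation. The ligands described here are 10 that T cells make, chosen by name: Tnfsf4, Tnfsf8, Cd70, Cd40lg, Tnfsf10, Tnfsf11, Tnfsf14, Tnf, Lta and Ltb. Each was matched to 1 of 23356 gene rows by its symbol, and all 10 were among the 11481 rows that the authors tested. They were chosen with their difference between the groups already known, so every value of that difference below is a description. Neither the authors' test results for these genes nor p-values recomputed from the authors' statistic are offered as support.

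The cells were T helper 17 (Th17) cells, the IL-17-producing class of CD4 T cells, from wild-type C57BL/6 mice aged 6 to 8 weeks. All were kept for 48 h in culture, and the groups were cells given recombinant murine SAA1 (serum amyloid A1, a protein of the acute-phase response) at a labelled dose of 2 ng/ml, and vehicle cells, whose treatment is labelled as none. There were 2 libraries of total RNA in each group. The comparison asks what SAA1 changes in cultured Th17 cells. How many mice or cultures stand behind each library was not stated in the labels, so the spread that enters the authors' test may be technical.

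The authors' deposited table gives 1 value per gene and group in FPKM (mapped fragments scaled to transcript length and library size), made from both libraries of the group. No value per library was at hand, so the spread between libraries and the depth are unknown. The error given after each log2 ratio is the standard error (SE) implied by the authors' test statistic, and "called" means a deposited adjusted p under 0.05. The T cell label fits the markers: 12 of 12 T cell genes were above 1 FPKM, with sums of 2017 FPKM with SAA1 and 2152 FPKM with vehicle, and so were 7 of 7 Th17 genes. Of 14 dendritic and myeloid markers, 0 reached 1 FPKM, and the value of C1qa was 0 with SAA1 and with vehicle. Of 9 B cell markers, only Ebf1 reached it, at 0.811 FPKM with SAA1 and 1.49 FPKM with vehicle. Of 10 CD8 and natural killer cell markers, only 4 were tested. Of these 4, 0 were called by the authors' Cuffdiff test, beside 6.52% of all tested genes, and so few tests are no result about the list. In either group, 3 of the 10 reached 1 FPKM. These were Nkg7, at 31.4 FPKM with SAA1 and 33.5 FPKM with vehicle, Cd8b1, at 4.24 FPKM with SAA1 and 4.32 FPKM with vehicle, and Prf1, at 1.02 FPKM with SAA1 and 0.604 FPKM with vehicle.

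The 10 ligands separated into those that were lower with SAA1, those that were higher and those that were close to equal. Called lower were 5 (Tnfsf8, Tnfsf4, Cd70, Tnfsf10 and Cd40lg), and called higher were 2 (Lta and Ltb), with 3 not called (Tnf, Tnfsf11 and Tnfsf14). Among all tested genes the same rule called 6.52%, which were 2.55% lower and 3.97% higher with SAA1. The median log2 ratio was -0.28 over the 10 ligands and -0.02 over all tested genes. Since the ligands were chosen with this contrast known, nothing is read from these counts.

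**Figure D1:**
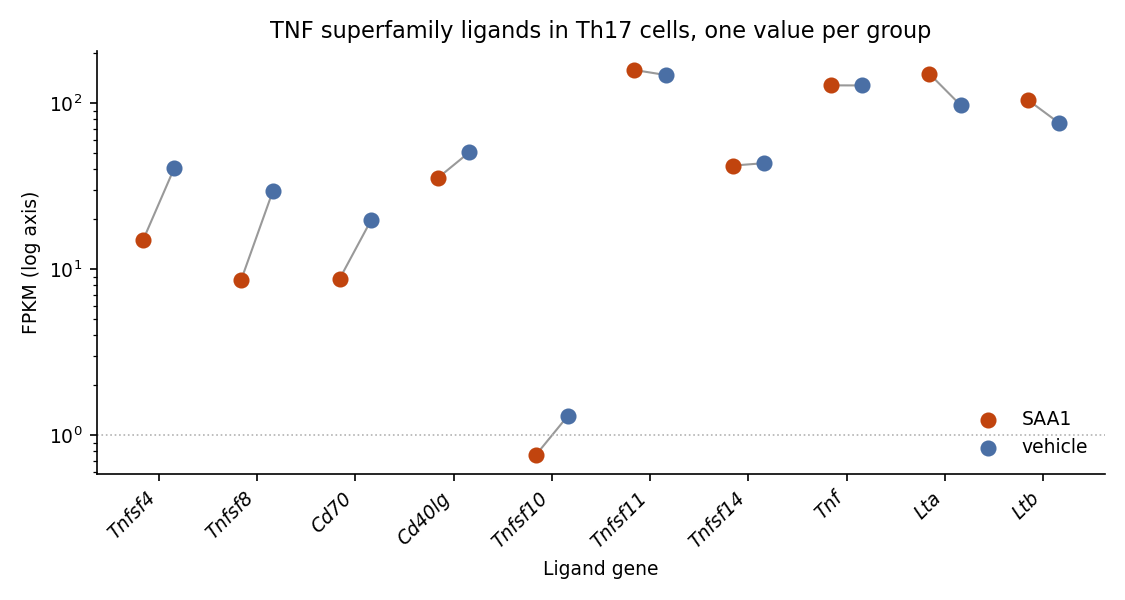
Level of each ligand in FPKM on a log axis, with the SAA1 value to the left of the vehicle value and a line joining the pair. Points are the authors' group values, so there are no error bars, and the dotted line marks 1 FPKM. Tnfsf4, Tnfsf8 and Cd70 lie furthest below their vehicle values, while Tnfsf11, Tnfsf14 and Tnf are nearly level.

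The lowest log2 ratios were those of Tnfsf8, Tnfsf4 and Cd70. Tnfsf8 encodes CD30 ligand and had 8.66 FPKM in SAA1 cells, against 29.4 FPKM in vehicle cells. It was 3.40-fold lower with SAA1, with a log2 ratio of -1.76 ± 0.22 (implied SE). Of all tested genes, 0.470% had a lower ratio, with genes undetected in SAA1 cells counted as lower. Tnfsf4 encodes OX40 ligand, which sustains the survival of T cells through OX40, and had 15.0 FPKM in SAA1 cells, against 40.9 FPKM in vehicle cells. It was 2.73-fold lower, with a log2 ratio of -1.45 ± 0.22. Cd70, the ligand of CD27, had 8.74 FPKM in SAA1 cells, against 19.7 FPKM in vehicle cells. The log2 ratio of Cd70 was -1.17 ± 0.28, a 2.25-fold lower value. The authors' deposited table gives these 3 genes an adjusted p of 0.0019, a floor that follows from its smallest p of 5e-05 and is shared by 300 rows (2.61% of those tested). In RNA from a whole culture, fewer cells that make a transcript and less of it per cell cannot be told apart.

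Cd40lg, the CD40 ligand by which helper T cells activate B cells and dendritic cells, was lower by less. It had 35.5 FPKM in SAA1 cells, against 50.7 FPKM in vehicle cells, with a log2 ratio of -0.51 ± 0.21 (adjusted p 0.0092, the authors' deposited table). Tnfsf10 encodes TRAIL, a ligand that can trigger cell death and an interferon-inducible gene. It was the weakest of the 10, at 0.762 FPKM in SAA1 cells and 1.30 FPKM in vehicle cells. Its log2 ratio of -0.77 ± 0.33 has adjusted p 0.029 by the authors' deposited table, and with a pseudocount of 1 FPKM the ratio was -0.38.

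OX40 ligand and CD70 are also made by B cells and dendritic cells, so the markers of those cells are given beside them. The summed level of the 9 B cell markers was 2.78 FPKM in SAA1 cells and 3.97 FPKM in vehicle cells, with 6 of 9 lower with SAA1. The summed level of the 14 dendritic and myeloid markers was 1.56 FPKM in SAA1 cells and 1.74 FPKM in vehicle cells, with 8 lower. The highest single value among the dendritic and myeloid markers was 0.549 FPKM, and the highest among the B cell markers was 1.49 FPKM. Their part in the lower ligand values was not tested. T cell markers were lower as well in 9 of 12 cases, and Trat1 and Cd3e were called lower and Thy1 higher in the authors' deposited table, where the list's median log2 ratio was -0.12. Of the 7 Th17 markers 6 were called higher, with a median log2 ratio of 1.08 and sums of 1794 FPKM in SAA1 cells and 371 FPKM in vehicle cells. Among all tested genes, 2.55% were called lower and 3.97% higher with SAA1.

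**Figure D2:**
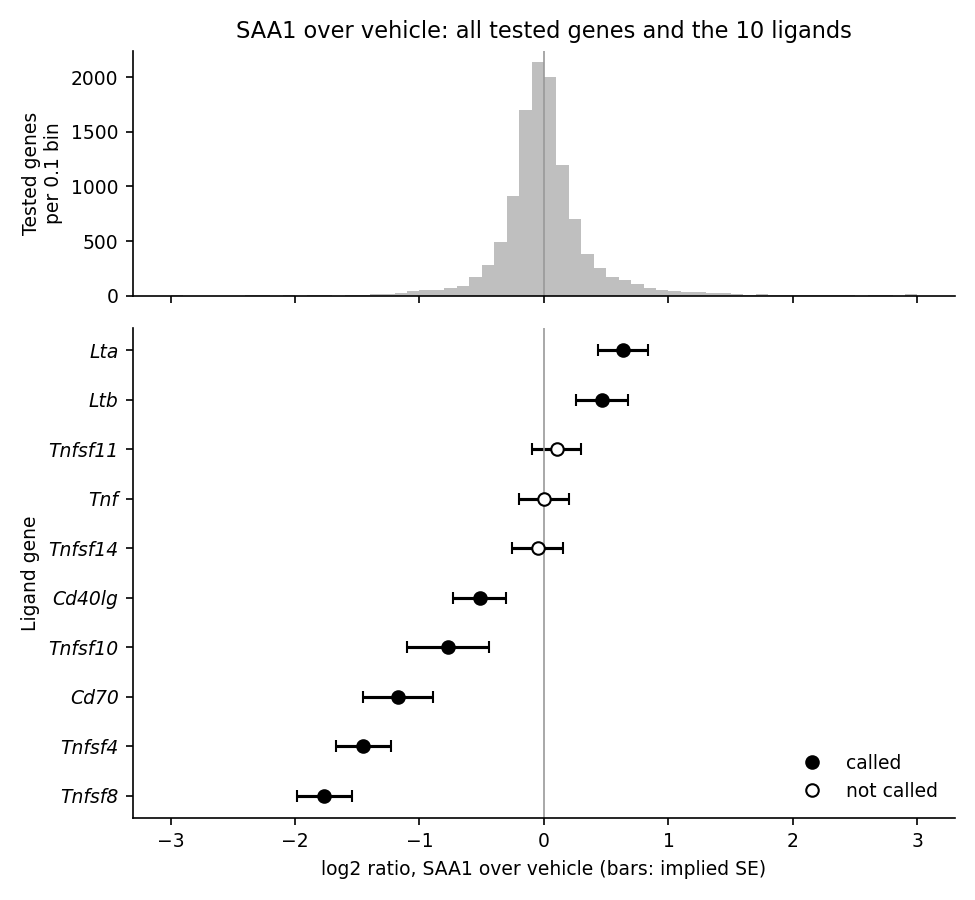
Upper panel: number of tested genes by log2 ratio of SAA1 over vehicle, in steps of 0.1, with finite ratios beyond the axis counted in the end bins. Tested genes with a value of 0 in either group have no finite ratio and are left out. Lower panel: the log2 ratio of each ligand with its implied SE, filled where called; the ratios of Tnfsf8, Tnfsf4 and Cd70 lie below -1 and those of Lta and Ltb lie above 0.

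The secreted inflammatory ligands and the lymphotoxins had high levels in both groups. Lta encodes lymphotoxin alpha, which acts as a secreted trimer on TNF receptors or, joined to lymphotoxin beta, at the membrane. Lta had 151 FPKM in SAA1 cells, against 97.3 FPKM in vehicle cells. The difference was 1.55-fold, with a log2 ratio of 0.63 ± 0.20 (adjusted p 0.0019, the authors' deposited table). Ltb, which encodes the membrane-anchored partner lymphotoxin beta, had 105 FPKM in SAA1 cells, against 76.2 FPKM in vehicle cells. Its log2 ratio was 0.47 ± 0.21 (adjusted p 0.034, the authors' deposited table).

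Tnf, the proinflammatory cytokine tumour necrosis factor, lies between them on chromosome 17 and was level. It had 128.3 FPKM in SAA1 cells, against 128.1 FPKM in vehicle cells, with a log2 ratio of 0.00 ± 0.20. The 95% interval from the implied SE runs from 0.763-fold to 1.31-fold, and differences within those bounds remain possible. The ratio of Lta to Tnf was 1.18 in SAA1 cells and 0.760 in vehicle cells, so Lta had the higher value of the pair in SAA1 cells and Tnf in vehicle cells. The ratio of Ltb to Tnf was 0.820 in SAA1 cells and 0.595 in vehicle cells.

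The promoters of the neighbours Lta, Tnf and Ltb are shown beside that of Tnfsf8, the ligand with the lowest ratio. They were picked with the ratios known, and Tnfsf8 cannot stand for the other ligands called lower. Each runs from 250 bases before to 50 bases after the RefSeq gene start, read 5′ to 3′ on the strand of the gene, on GRCm38.p6. Capitals mark each match to TTCNNNGAA, the palindrome that STAT factors bind, searched on both strands. Matches to the other motifs searched, given below, are not marked. The windows are chr17:35205302-35205601 (minus strand) for Lta, chr17:35201958-35202257 (minus strand) for Tnf, chr17:35194257-35194556 (plus strand) for Ltb and chr4:63861235-63861534 (minus strand) for Tnfsf8.
Lta: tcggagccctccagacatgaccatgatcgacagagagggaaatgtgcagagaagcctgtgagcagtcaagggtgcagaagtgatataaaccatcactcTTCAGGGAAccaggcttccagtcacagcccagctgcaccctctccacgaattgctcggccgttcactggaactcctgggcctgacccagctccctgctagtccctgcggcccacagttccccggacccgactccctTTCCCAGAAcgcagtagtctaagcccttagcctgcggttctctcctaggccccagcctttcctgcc
Ltb: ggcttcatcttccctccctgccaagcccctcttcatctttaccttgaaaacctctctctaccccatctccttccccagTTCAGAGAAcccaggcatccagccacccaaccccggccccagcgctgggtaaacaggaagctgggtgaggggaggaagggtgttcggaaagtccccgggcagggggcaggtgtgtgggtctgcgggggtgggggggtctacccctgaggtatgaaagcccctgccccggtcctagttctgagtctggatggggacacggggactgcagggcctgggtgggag
Tnf: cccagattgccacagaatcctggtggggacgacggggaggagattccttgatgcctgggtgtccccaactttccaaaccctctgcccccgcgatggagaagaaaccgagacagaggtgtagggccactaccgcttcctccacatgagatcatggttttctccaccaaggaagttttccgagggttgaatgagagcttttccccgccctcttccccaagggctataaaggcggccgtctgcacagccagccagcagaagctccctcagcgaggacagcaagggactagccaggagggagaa
Tnfsf8: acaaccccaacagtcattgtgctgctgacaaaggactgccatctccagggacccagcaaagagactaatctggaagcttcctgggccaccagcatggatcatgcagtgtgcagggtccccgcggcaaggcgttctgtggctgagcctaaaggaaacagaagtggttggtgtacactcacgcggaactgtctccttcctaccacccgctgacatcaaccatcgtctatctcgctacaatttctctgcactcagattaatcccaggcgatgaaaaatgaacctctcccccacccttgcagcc

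In the Lta window the matches begin at -152 and -16 from the gene start, and in the Ltb window a match begins at -172. The windows of Tnf and Tnfsf8 hold none of these letters. Promoters were at hand for 7 of the 10 ligands (not Tnfsf4, Cd70 and Cd40lg, which are 3 of the 5 called lower), and of the 7, 2 held the motif, and 8.30% of 32851 promoters of the same length did. The NFAT core GGAAA was found in 7 of the 7, against 61.3% of all promoters, and the match at -17 of Lta overlaps the STAT letters at -16. The AP-1 letters TGANTCA stood in 1 (Tnfsf14), against 7.81% of promoters, and the ROR motif AGGTCA in 1 (Tnfsf10), against 16.3%. The kappaB motif stood in 1 (Ltb, at -87, overlapping an NFAT core there), against 8.46%. These are matches of letters and not sites of binding, and all motifs were searched on both strands. With 7 promoters the counts are no result about the ligands.

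The other ligands with high or moderate levels were not called. Tnfsf11 encodes RANKL, the osteoclast-differentiating ligand that Th17 cells also make, and was the most abundant of the 10. It had 159 FPKM in SAA1 cells, against 148 FPKM in vehicle cells, and its log2 ratio of 0.10 ± 0.20 has a 95% interval of 0.818-fold to 1.41-fold. Tnfsf14 encodes LIGHT, a T cell ligand of HVEM and of the lymphotoxin beta receptor. It had 42.1 FPKM in SAA1 cells, against 43.6 FPKM in vehicle cells, with a log2 ratio of -0.05 ± 0.21 and an interval of 0.732-fold to 1.28-fold.

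Which ligands are called depends on how the authors' statistic is turned into a p. The ligands were chosen with this contrast known, so the p-values here are a description and no support for a difference. Over the genes called, the deposited p was smaller than the normal p (both tails) of the same statistic by a median of 1.16 in log10 units. This does not hold for each gene, because the deposited p has a floor of 5e-05. The normal p was below that floor for Tnfsf8 (1.9e-15), Tnfsf4 (4.5e-11) and Cd70 (2.9e-05). The normal p was adjusted by Benjamini-Hochberg over tested rows, without 78 that had no numeric statistic. By this adjusted normal p, 2.15% of all tested genes were called (0.801% lower and 1.35% higher). Of the ligands, 3 were lower (Tnfsf8, Tnfsf4 and Cd70) and 0 were higher. By that rule the adjusted p was 0.069 for Lta, 0.32 for Cd40lg, 0.37 for Tnfsf10 and 0.41 for Ltb.

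By level, Tnfsf11, Tnf, Lta and Ltb were the 4 most abundant ligands in both groups, with Lta and Tnf in exchanged places, and none of the 4 had a lower value with SAA1. In SAA1 cells the order from the top was Tnfsf11, Lta, Tnf, Ltb, Tnfsf14, Cd40lg, Tnfsf4, Cd70, Tnfsf8 and Tnfsf10. In vehicle cells it was Tnfsf11, Tnf, Lta, Ltb, Cd40lg, Tnfsf14, Tnfsf4, Tnfsf8, Cd70 and Tnfsf10. With 1 value per group there is no spread over libraries to separate neighbours in either order. Tnfsf4 exceeded 48.1% of expressed genes (at least 1 FPKM in either group) in SAA1 cells and 75.9% in vehicle cells, and Tnfsf8 exceeded 33.3% in SAA1 cells and 67.6% in vehicle cells.

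The summed FPKM of the 10 ligands differed little between the groups, while its make-up did. The sum was 654 FPKM in SAA1 cells and 635 FPKM in vehicle cells, a difference of 2.95%. The 5 ligands called lower summed to 68.6 FPKM in SAA1 cells and 142 FPKM in vehicle cells. The 2 called higher summed to 256 FPKM in SAA1 cells and 173 FPKM in vehicle cells. Both sets were formed by the same contrast, so the direction of their sums was fixed in advance and only their size is described. Lta made up 23.1% of the sum in SAA1 cells and 15.3% in vehicle cells, and Tnfsf4 made up 2.29% in SAA1 cells and 6.44% in vehicle cells.

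**Figure D3:**
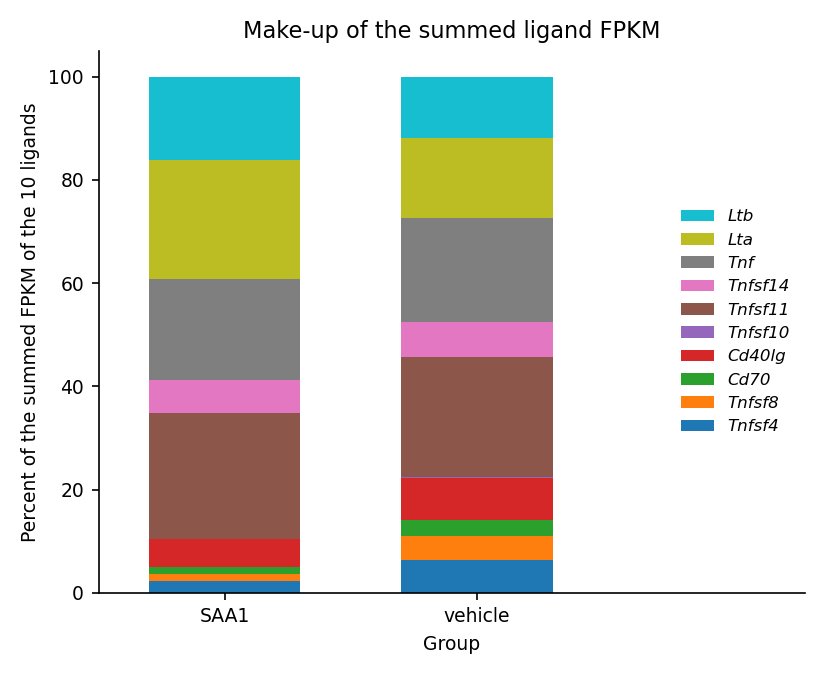
Share of each ligand in the summed FPKM of the 10, in percent, for SAA1 cells and vehicle cells. The segments of Lta and Ltb are taller in the SAA1 bar, those of Tnfsf4, Tnfsf8, Cd70 and Cd40lg are shorter, and that of Tnf is 19.6% with SAA1 and 20.2% with vehicle.

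Many of these genes lie in clusters of the family, and the log2 ratios within a cluster were unlike in direction or size, although the differences between neighbours were not tested. Positions are those of the authors' deposited table on mm10, whole genes with their introns, and none of the 10 ligands shares its locus with another row. Ltb, Tnf and Lta lie within 10.8 kb of chromosome 17 (chr17:35194507-35196305, chr17:35199391-35201996 and chr17:35203165-35205351), with Ltb and Lta higher with SAA1 and Tnf level between them. Cd70 (chr17:57145997-57149777) lies between Tnfsf9 and Tnfsf14 (chr17:57189492-57194186). Tnfsf9, the 4-1BB ligand, whose row shares its locus with another, had 19.7 FPKM in SAA1 cells and 25.6 FPKM in vehicle cells and was not called. The ratio of Cd70 to Tnfsf14 was 0.208 in SAA1 cells and 0.452 in vehicle cells.

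Tnfsf4 (chr1:161395438-161418206) shares a stretch of chromosome 1 with Tnfsf18 and Fasl. Fasl, the death ligand of T cells, had 5.72 FPKM in SAA1 cells and 8.32 FPKM in vehicle cells (adjusted p 0.056, the authors' deposited table). Tnfsf18 was under 0.1 FPKM in both groups, and so was Tnfsf15, the neighbour of Tnfsf8 (chr4:63832824-63861284). The single ligands lie at chrX:57212143-57224042 (Cd40lg), chr3:27317077-27339665 (Tnfsf10) and chr14:78277446-78308043 (Tnfsf11). The third by level of 8 further ligands, Tnfsf13 (APRIL), was at 0.0932 FPKM in SAA1 cells and 0.0728 FPKM in vehicle cells and was not tested. Of the 8, 2 were tested (Fasl and Tnfsf9) and 0 were called by the authors' Cuffdiff test, although both had an unadjusted p under 0.05, and by the normal p 0 were called. Among all tested genes 6.52% were called and 15.8% had such a p.

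**Figure D4:**
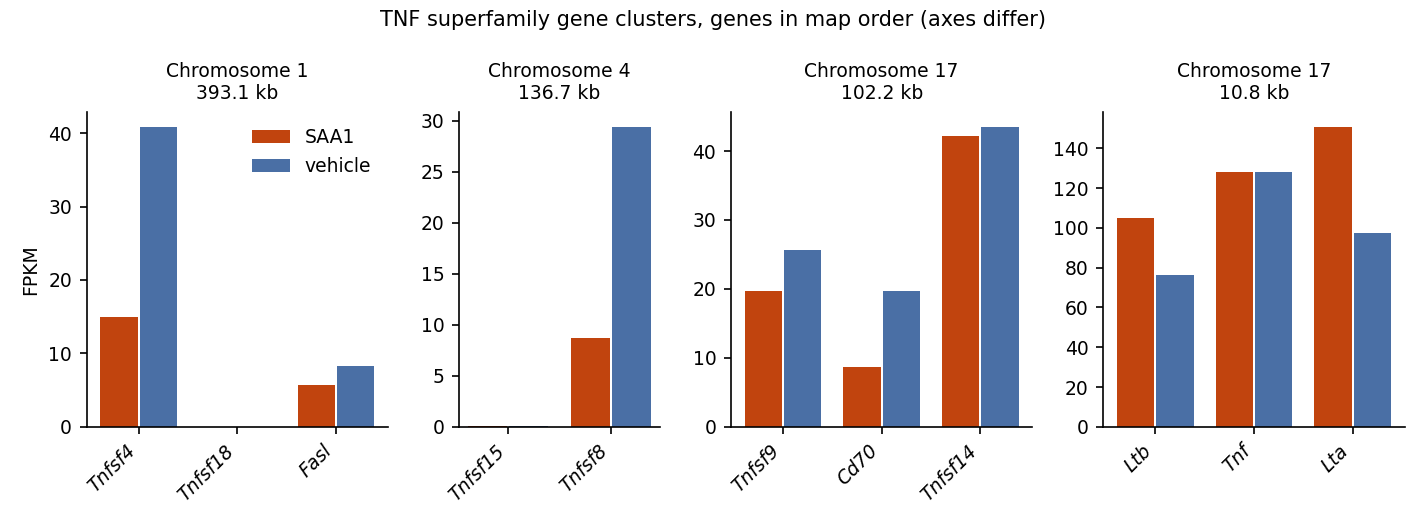
FPKM of the ligand genes in 4 genomic clusters, in map order, with the SAA1 bar left of the vehicle bar; each panel has its own axis from 0 and its title gives the length from the first to the last gene. Ltb and Lta are higher with SAA1 on either side of a level Tnf, and Cd70 is lower between Tnfsf9 and Tnfsf14.

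Transcripts of several ligands are known to be short-lived through AU-rich elements in the 3′ UTR. The decay factor TTP (Zfp36) helps to clear transcripts with such elements. The letters TATTTAT stood at least once in the 3′ UTR of 8 of the 10 ligands, against 27.1% of 10161 tested genes with a sequence. Tnf had 8 copies in 764 bases. Lta, Tnfsf8 and Tnfsf10 had 3 copies each, in 572, 2799 and 3998 bases, and Cd40lg had 2 in 455 bases. Tnfsf11, Tnfsf14 and Cd70 had 1 each, and Tnfsf4 and Ltb had 0. Genes with 3 or more copies thus included a level, a higher and 2 lower ligands, and 3.28% of tested genes had as many. Counts are on the GENCODE transcript with the longest coding sequence, and overlapping copies were each counted. The shares do not allow for length, and the median 3′ UTR of the tested genes with a sequence was 924 bases. These are matches of letters, and no decay was measured.

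Receptors of these ligands were described next, from a list fixed by ligand. Of 13 listed, 8 were tested, with 2 called lower (Tnfrsf10b and Tnfrsf14) and 1 higher (Tnfrsf1b) in the authors' deposited table, beside 2.55% lower and 3.97% higher among all tested genes; by the normal p 0 were called. The median log2 ratio of the 8 was -0.01. Tnfrsf4, the OX40 receptor of Tnfsf4, was by far the most abundant, at 688 FPKM in SAA1 cells and 686 FPKM in vehicle cells, with a log2 ratio of 0.00 ± 0.20. Its ligand thus had 0.0217 times the level of the receptor in SAA1 cells and 0.0596 times in vehicle cells. Cd27, the receptor of CD70, had 26.0 FPKM in SAA1 cells and 24.9 FPKM in vehicle cells, in a locus shared with another row.

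Tnfrsf8, the CD30 receptor of Tnfsf8, was weakly expressed, at 0.710 FPKM in SAA1 cells and 1.43 FPKM in vehicle cells. Its log2 ratio of -1.01 ± 0.48 has adjusted p 0.063 by the authors' deposited table. Cd40 was at 0.304 FPKM in SAA1 cells and 0.457 FPKM in vehicle cells, and Tnfrsf11a, the RANK receptor of RANKL, at 0.0596 FPKM in SAA1 cells and 0.0536 FPKM in vehicle cells; neither was tested. The lymphotoxin beta receptor Ltbr was at 0.478 FPKM in SAA1 cells and 0.251 FPKM in vehicle cells and was not tested.

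Both TNF receptors were expressed. Tnfrsf1b, TNFR2, which carries TNF and lymphotoxin alpha signals in T cells, had 6.73 FPKM in SAA1 cells and 4.57 FPKM in vehicle cells. Its log2 ratio was 0.56 ± 0.23 (adjusted p 0.015, the authors' deposited table). Tnfrsf1a, TNFR1, which has a death domain, had 7.97 FPKM in SAA1 cells and 8.10 FPKM in vehicle cells. Tnfrsf10b, the death receptor of TRAIL, had 8.09 FPKM in SAA1 cells and 11.7 FPKM in vehicle cells, with a log2 ratio of -0.53 ± 0.22 (adjusted p 0.011, the authors' deposited table). Tnfrsf14, the HVEM receptor of LIGHT, had 12.4 FPKM in SAA1 cells and 18.6 FPKM in vehicle cells, with a log2 ratio of -0.59 ± 0.26 (adjusted p 0.023, the authors' deposited table).

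Of 14 further receptors of the family, 10 were tested and 2 were called lower, Tnfrsf21 and Eda2r, and 0 higher, beside the same 2.55% and 3.97% of all tested genes. The normal p left Tnfrsf21 alone. Tnfrsf21, the death receptor DR6, had 2.19 FPKM in SAA1 cells and 4.69 FPKM in vehicle cells, with a log2 ratio of -1.10 ± 0.27. Eda2r, a receptor of ectodysplasin A2, had 2.02 FPKM in SAA1 cells and 3.99 FPKM in vehicle cells, with a log2 ratio of -0.98 ± 0.30. The authors' deposited table gives both an adjusted p of 0.0019. Abundant members of this list, Tnfrsf18 (GITR), Tnfrsf25 and Fas, were not called. Their log2 ratios were 0.06 ± 0.20, 0.32 ± 0.21 and -0.36 ± 0.24.

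**Figure D5:**
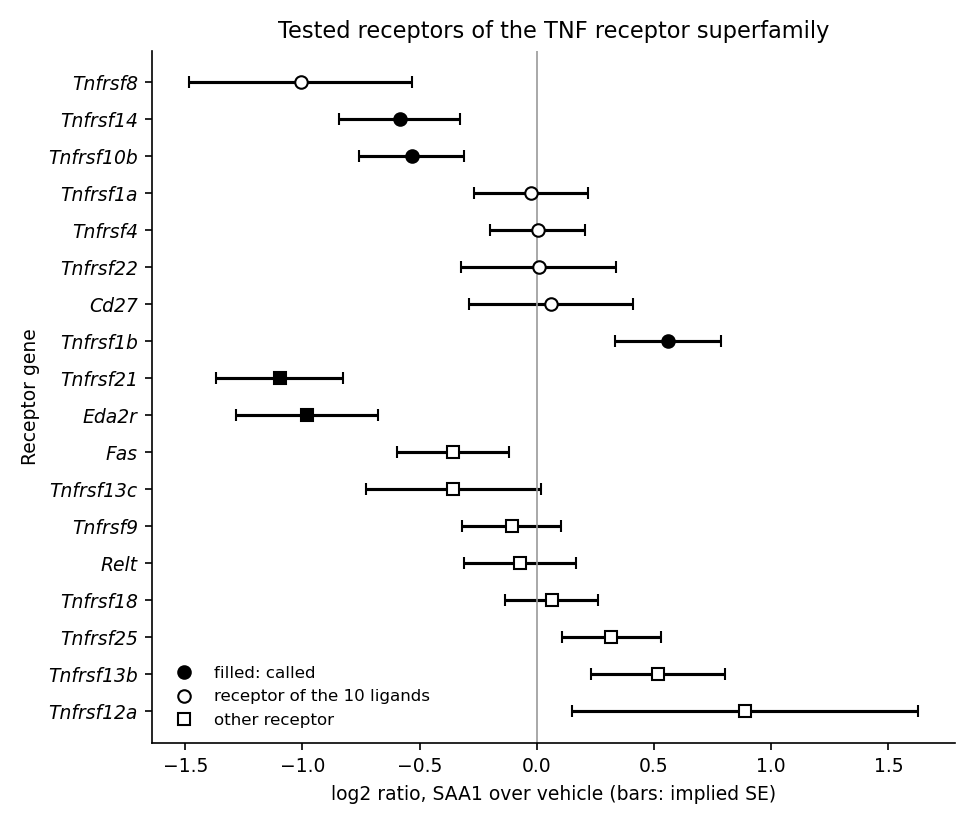
Log2 ratio of SAA1 over vehicle with its implied SE for the 18 tested receptors, circles for receptors of the 10 ligands and squares for other receptors, filled where called. Tnfrsf1b lies above 0 among the called receptors, and the other called receptors lie below 0.

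The adaptors and kinases below these receptors gave counts near those of all tested genes. Of 17 tested members, among them the TRAF adaptors Traf1 to Traf6, 0 were called by the authors' Cuffdiff test, 3 had an unadjusted p under 0.05 and 0 were called by the normal p. Of all tested genes 6.52% were called and 15.8% had an unadjusted p under 0.05, so with 17 genes these counts are no result about the list. Their log2 ratios lay between -0.20 and 0.32, with a median of 0.04. Traf1, an adaptor of TNFR2 and other receptors, had 45.2 FPKM in SAA1 cells and 47.8 FPKM in vehicle cells. Casp8, the protease of death receptors, had 45.1 FPKM in SAA1 cells and 47.2 FPKM in vehicle cells, and Tnfaip3, the deubiquitinase A20, had 39.6 FPKM in SAA1 cells and 45.5 FPKM in vehicle cells.

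Among 14 transcription factor genes tied to the induction of ligands, 1 was called lower and 1 higher in the authors' deposited table, and by the normal p neither was. With 6.52% called among all tested genes, a count of 2 in 14 is no result about the list. Nfatc1, a calcium-regulated factor, had 17.9 FPKM in SAA1 cells and 25.1 FPKM in vehicle cells, with a log2 ratio of -0.48 ± 0.21 (adjusted p 0.019, the authors' deposited table). Batf3, a leucine zipper factor, had 5.04 FPKM in SAA1 cells and 2.06 FPKM in vehicle cells, with a log2 ratio of 1.29 ± 0.43 (adjusted p 0.0059, the authors' deposited table). The NF-kB genes Nfkb1, Nfkb2, Rel, Rela and Relb were not called and had log2 ratios between -0.07 and 0.19.

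Of 12 genes for the decay of ligand transcripts or the shedding of ligand proteins, 0 were called by the authors' Cuffdiff test, 2 had an unadjusted p under 0.05 and 0 were called by the normal p, which is near the 6.52% called and the 15.8% with such a p among all tested genes. Of these 12 genes, 11 had a lower value in SAA1 cells, beside 53.2% of all tested genes, and the median log2 ratio was -0.15, beside -0.02. The shared direction was not tested, and the list mixes genes of unlike function. With 0 called, it is no result about the list. Elavl1, which stabilises AU-rich transcripts, had 37.7 FPKM in SAA1 cells and 44.8 FPKM in vehicle cells. Adam17, the protease that releases TNF from the membrane, had 40.9 FPKM in SAA1 cells and 41.4 FPKM in vehicle cells. Sppl2a, an intramembrane protease of the TNF stub, had 35.0 FPKM in SAA1 cells and 39.1 FPKM in vehicle cells.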

How the data were processed

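Total RNA of 4 Th17 libraries was made into TruSeq libraries, per the labels' protocols, and the libraries were grouped by title, 2 as SAA1 and 2 as vehicle. TopHat2 and Cuffdiff, and the builds mm9 and mm10, are named in the submitters' processing notes; versions, strand settings and scaling are not named there. The deposited table holds group values in FPKM, a test statistic (a score), a p-value and a q-value, all made by the authors, per the file headers. From these the log2 ratio was recomputed, and the SE was taken as that ratio over the statistic. The q-value of the authors was rechecked as a Benjamini-Hochberg adjustment (largest gap 5.23e-07). Starts were counted from 1, and 99.4% of 19203 rows with a GENCODE symbol overlapped the GRCm38 position. Promoters came from RefSeq and 3′ UTRs from GENCODE M21. Calculations used Python 3.11.15, pandas 2.3.3 and scipy 1.17.1, and the functions were tested on simulated data. With no value per library, limma and count tests could not be run. The 10 ligands and all lists were chosen with earlier results of these data known. The genes named were the 10 ligands and, of each list, the called members or those of highest FPKM. Values of Tnfrsf4, Tnfrsf8, Cd40, Tnfrsf11a, Ltbr, Cd27, Tnfrsf1a, the NF-kB genes, Fas, Tnfrsf18, Tnfrsf25, Tnfsf15 and Tnfsf18 were added beside their partners.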

Additional observations from a re-analysis of the deposited data

How the results depend on the processing

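No paired analysis was possible because the table holds 1 value per group and no value per library, and for the same reason no replicate was left out. With an adjusted p under 0.01, 4 ligands were called lower (without Tnfsf10) and 1 higher (without Ltb), and the called receptors of the 10 ligands were 0 lower and 0 higher and the transcription factors 0 lower. With an adjusted p under 0.1, 1 further ligand of the family (Fasl) was called lower, and the receptors of the 10 ligands were 3 lower (with Tnfrsf8). With a minimum fold of 1.5, 4 ligands were lower (without Cd40lg) and 1 higher (without Ltb), the receptors of the 10 ligands were 1 lower and 0 higher, and the transcription factors 0 lower. With the two-sided normal p, chosen after seeing the data, 3 ligands were lower and 0 higher, the receptors of the 10 ligands were 0 lower and 0 higher, the other receptors 1 lower, and the transcription factors 0 lower and 0 higher. The cause was not tested; the normal p calls fewer genes in all, 247 against 749. Adjusting over rows of at least 1 FPKM and leaving out rows that share a locus kept all 14 counts within 1.5 times. Centring on the median moved each ligand's log2 ratio by 0.02, and a pseudocount of 0.1 FPKM by at most 0.07. A pseudocount of 1 FPKM moved it by at most 0.39, for Tnfsf10. Depth is unknown, so what a weak gene such as Tnfsf10 could show cannot be stated.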
